A study of Homo sapiens with 6 samples.

Results

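The genes that encode the proteins of the cytosolic ribosome were followed in RNA sequencing libraries labelled HepG2, a human liver cancer cell line, with and without knockdown of STAT3. Members were the rows of the count table named RPL or RPS with a number, with or without a trailing A, X, L, AL or L1, together with RPLP0, RPLP1, RPLP2 and RPSA. Pseudogenes and the RPS6K kinases were left out. This gave 84 of the 27452 rows, and 83 of them passed the filter on low counts that left 14999 rows for testing. The member that did not pass was RPL3L, a muscle paralog of RPL3, with 4, 0 and 2 counts in STAT3 shRNA libraries 1, 2 and 3 and 4, 0 and 0 counts in control shRNA libraries 1, 2 and 3.

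There were 6 libraries in 2 groups, 3 from cells with a short hairpin RNA (shRNA) against STAT3 and 3 from cells with a control shRNA. The cell cuts such a hairpin into a small interfering RNA, which directs destruction of the matching transcript. STAT3 switches genes on after cytokines have activated Janus kinases. All cells were grown in DMEM with serum, and the labels do not say which hairpin sequence each library carries or whether the numbered libraries came from separate cultures. All p-values are therefore relative to a spread between libraries that may be no more than technical.

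The cytosolic ribosome has a large 60S subunit, which joins amino acids, and a small 40S subunit, which reads the messenger RNA. Each subunit is built from ribosomal RNA and many small basic proteins, most of them present once per ribosome, so their genes are usually expressed together. Their messenger RNAs start with a terminal oligopyrimidine (TOP) tract, a C followed by a run of C and T (U in the RNA), through which mTOR complex 1 and the RNA-binding protein LARP1 control their translation and stability. Making ribosomes takes a large share of the resources of a growing cell.

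STAT3 itself had 34.8, 35.8 and 36.2 CPM (counts relative to the library size after TMM scaling) in STAT3 shRNA libraries 1, 2 and 3, against 261.5, 246.7 and 246.3 CPM in control shRNA libraries 1, 2 and 3. The log2 fold change was -2.82 ± 0.0845 (SE, edgeR adjusted p = 2.19e-07). Library totals were 17694642 to 25862027 counts in the STAT3 shRNA group and 17408543 to 20133064 counts in the control shRNA group. Of 17 hepatocyte and HepG2 markers, 8 had a row, 2 of them (HNF4A and TF) reached 1 CPM in any library, and ALB, the albumin gene that defines hepatocytes, had at most 3 counts in a library. The other 9 were not analysed here. Such levels go against the label, since HepG2 cells are known for making albumin and apolipoproteins, and the name is used here only as the labels give it. The summed level of those 8 markers was 5.94 to 8.94 CPM in STAT3 shRNA and 2.27 to 3.95 CPM in control shRNA libraries, and ALB, APOA1, APOA2 and FGG were at 0 to 3 counts in every library. Of 6 fibroblast markers, 5 had a row and 2 (COL1A1 and DCN) reached 1 CPM, with a summed level of 30.3 to 31.1 CPM in STAT3 shRNA and 49.1 to 55.5 CPM in control shRNA libraries. The lower sum was that of COL1A1, at 14.3 to 16.5 CPM in STAT3 shRNA and 38.3 to 43.5 CPM in control shRNA libraries. DCN went the other way, at 13.85 to 15.38 CPM in STAT3 shRNA and 10.52 to 13.77 CPM in control shRNA libraries. Of 4 leukocyte markers, 1 had a row and none reached 1 CPM, with 0.0545 to 0.246 CPM in STAT3 shRNA and 0 to 0.211 CPM in control shRNA libraries. The share of counts on mitochondrial genome genes was 3.39% ± 0.700 in STAT3 shRNA and 3.21% ± 0.598 in control shRNA libraries (SD, n = 3 each).

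The ribosomal protein genes sat lower in the STAT3 shRNA group as a body, but the groups overlapped in 52 of the 83 tested members. Together they took 5.92%, 6.61% and 6.07% of all counts in STAT3 shRNA libraries 1, 2 and 3, against 6.37%, 7.30% and 8.57% in control shRNA libraries 1, 2 and 3. On this unscaled share STAT3 shRNA library 2 was above control shRNA library 1, and control shRNA library 3 stood above the other 5. On the TMM-scaled sum the groups did not overlap but nearly met, at 64037 CPM in STAT3 shRNA library 2 and 64638 CPM in control shRNA library 1. The median member lay -0.24, -0.06 and -0.20 from its own mean over the 6 libraries on the log2 scale in STAT3 shRNA libraries 1, 2 and 3, against -0.07, 0.13 and 0.44 in control shRNA libraries 1, 2 and 3. Control shRNA library 3 held the highest value of 74 of the 83 tested members. STAT3 shRNA library 1 held the lowest value of 41 members, STAT3 shRNA library 3 of 22 and STAT3 shRNA library 2 of 12. Control shRNA library 1 was the lowest of its own group in 71 members, and STAT3 shRNA library 2 the highest of its group in 60. In 43 of the 52 members whose groups overlapped, STAT3 shRNA library 2 was above control shRNA library 1. In bulk RNA, fewer cells of a type and less RNA of these genes per cell cannot be told apart.

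**Figure D1:**
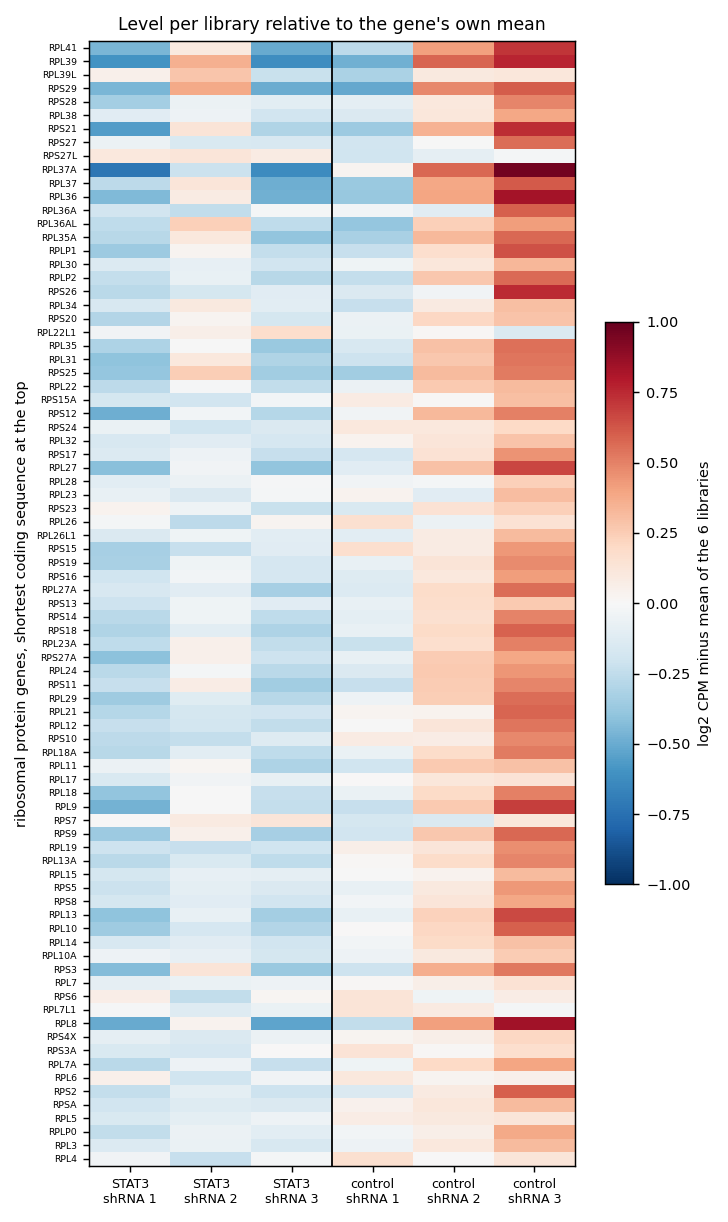
Level of each of the 83 tested ribosomal protein genes in each library, as log2 CPM minus the gene's mean over the 6 libraries, with the 3 STAT3 shRNA libraries left of the 3 control shRNA libraries and genes ordered by coding length, shortest at the top. Most rows are bluest in STAT3 shRNA libraries 1 and 3 and reddest in control shRNA library 3, the highest library for 74 of the 83 genes.

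Relative to all genes, the members' log2 fold changes (STAT3 shRNA over control shRNA) were below 0 in 79 of 83 tested members, against 50.9% of all tested genes. Their median was -0.34, a fold of 0.790, with quartiles of -0.45 and -0.23, beside a median of -0.01 over all tested genes. The spread among members was narrow, with 66 of 83 within 0.2 of their median. In 30 members, or 36.1% of those tested, every STAT3 shRNA library was below every control shRNA library, against 17.2% of all tested genes. The reverse was seen in 1 member, RPS27L, against 18.5% of all tested genes. The direction of the median was the same under each scaling tried and with each library left out, at -0.46 without control shRNA library 1 and -0.19 without control shRNA library 3. The members' summed level averaged 60063 ± 3479 CPM in STAT3 shRNA and 76911 ± 13251 CPM in control shRNA libraries (SD, n = 3 each).

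Gene by gene, 11 of the 83 tested members, or 13.3%, fell past an adjusted p of 0.05 in edgeR's quasi-likelihood test, and 0 rose, while 8.13% of all tested genes fell and 9.39% rose. At an unadjusted p under 0.05, 44 members were lower and 1 was higher, but no share of all genes at that p is given here to set beside them. By DESeq2, 26 were called lower and 0 higher, with 31.3% of members lower against 9.99% of all tested genes. The count rested on single libraries. It was 0, 4 and 1 without STAT3 shRNA library 1, 2 or 3, and 53, 1 and 6 without control shRNA library 1, 2 or 3. The 11 calls were all lost without STAT3 shRNA library 1, where their log2 fold changes ran from -0.98 (RPL37A) to -0.30 (RPSA). The share of all genes called lower was 13.1% without control shRNA library 1, where the members' share was 63.9%. Without STAT3 shRNA library 1, 2 or 3 the members' share was 0%, 4.82% and 1.2%, against 4.36%, 6.48% and 4.39% of all genes. It was 1.2% and 7.23% without control shRNA library 2 or 3, against 4.58% and 7.29% of all genes. The excess of calls over all genes was thus absent in these fits. Without scaling factors, on library totals, 5 members were called lower and 1 higher, with 6.02% of members lower against 5.83% of all genes. The calls over all genes were then 1916 higher and 874 lower, beside 1408 higher and 1219 lower with TMM factors.

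The 11 called members were 6 proteins of the 60S and 5 of the 40S subunit. The most changed of them was RPL37A, a small zinc-binding protein of the 60S subunit, at -1.08 on the log2 scale. RPL10, a 60S protein added in the last cytoplasmic step of subunit maturation, had 1174, 1337 and 1228 CPM in STAT3 shRNA libraries 1, 2 and 3, against 1504, 1736 and 2273 CPM in control shRNA libraries 1, 2 and 3. All STAT3 shRNA libraries were below all control libraries, and the log2 change was -0.56 ± 0.143 (SE; edgeR adjusted p = 0.0256). RPL13A, a 60S protein also known as part of an inhibitory complex on inflammatory messenger RNAs, had 2416, 2623 and 2453 CPM in STAT3 shRNA libraries 1, 2 and 3, against 2943, 3312 and 4093 CPM in control shRNA libraries 1, 2 and 3. The groups did not overlap, and the log2 fold change was -0.47 ± 0.121 (SE; edgeR adjusted p = 0.0278).

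RPS15, a 40S protein of the head of the subunit, had 688, 738 and 798 CPM in STAT3 shRNA libraries 1, 2 and 3, against 972, 914 and 1167 CPM in control shRNA libraries 1, 2 and 3. Its groups did not overlap either. At -0.46 ± 0.110 on the log2 scale (SE; edgeR adjusted p = 0.0200) it was the most stable of these calls, lost in 2 of 13 alternative settings (leaving out STAT3 shRNA library 1 gave -0.41, and leaving out its library 2 gave -0.45). RPL19 averaged 958 ± 11.4 CPM in STAT3 shRNA and 1299 ± 203 CPM in control shRNA libraries (SD, n = 3 each), and its log2 change was -0.44 (edgeR adjusted p = 0.0258). RPL12, at the base of the stalk that recruits elongation factors, averaged 869.7 ± 18.3 CPM in STAT3 shRNA and 1192 ± 243 CPM in control shRNA libraries (SD, n = 3 each), and its log2 change was -0.45 (edgeR adjusted p = 0.0446). In both genes the STAT3 shRNA libraries lay close together and control shRNA library 3 was well above the others.

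RPL29 (log2 fold change -0.52, edgeR adjusted p = 0.0371) and the 40S proteins RPS12 (-0.54, adjusted p = 0.0433) and RPS10 (-0.43, adjusted p = 0.0353) were each lost in 6 of the 13 alternatives. RPS12 was the only one of the 11 called members whose groups overlapped, since STAT3 shRNA library 2 reached 352.3 CPM and control shRNA library 1 was at 350.4 CPM. RPSA, a 40S protein first described as a laminin receptor, had 1320.1, 1374 and 1362 CPM in STAT3 shRNA libraries 1, 2 and 3, against 1547, 1625 and 1869 CPM in control shRNA libraries 1, 2 and 3. RPS24, one of the 40S proteins mutated in Diamond-Blackfan anaemia, had 810.3, 738 and 769 CPM in STAT3 shRNA libraries 1, 2 and 3, against 912, 914 and 976 CPM in control shRNA libraries 1, 2 and 3. Both had small changes between groups that did not overlap, with log2 fold changes of -0.31 and -0.27 (edgeR adjusted p = 0.0452 each), and they kept the call in 5 and 4 of the 13 alternatives.

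**Figure D2:**
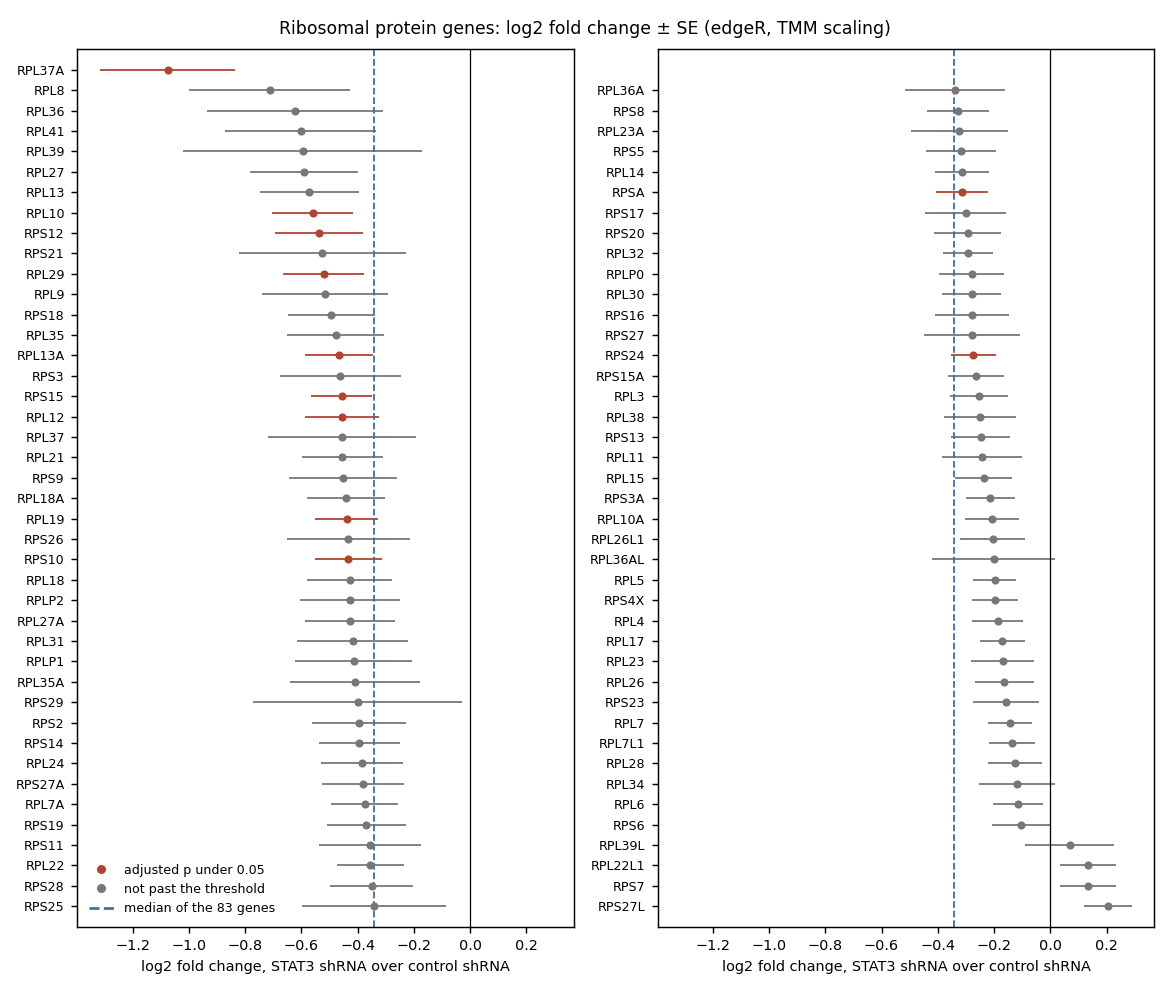
Log2 fold change (STAT3 shRNA over control shRNA) of the 83 tested ribosomal protein genes with its SE, sorted, with genes past an adjusted p of 0.05 in red and the members' median of -0.34 as a dashed line. All but 4 genes lie below 0, RPL37A stands apart at -1.08, and RPL39L, RPL22L1, RPS7 and RPS27L lie above 0.

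The subunits had nearly the same median. In the 60S subunit 6 of 51 tested members were called lower, 49 had a log2 fold change below 0 and the median was -0.36. In the 40S subunit 5 of 32 were called lower, 30 were below 0 and the median was -0.33. Every STAT3 shRNA library was below every control shRNA library in 20 of the 60S and 10 of the 40S members. Over all tested genes 8.13% were called lower, and 17.2% had every STAT3 shRNA library below every control shRNA library. The stalk proteins RPLP0, RPLP1 and RPLP2, which recruit the elongation factors, had log2 fold changes of -0.28, -0.41 and -0.43, with none past the threshold. RPL5 and RPL11, which with the 5S RNA can bind and inhibit MDM2, the ubiquitin ligase of p53, had -0.20 and -0.24, also not past it. RPS6, the classic substrate of the S6 kinases, had 1454, 1167 and 1408 CPM in STAT3 shRNA libraries 1, 2 and 3, against 1517, 1346 and 1464 CPM in control shRNA libraries 1, 2 and 3. Its groups overlapped, and its log2 fold change of -0.10 ± 0.103 (SE; edgeR adjusted p = 0.536) was among the smallest of the members in size.

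Several members with larger changes missed the threshold and had a wide spread within groups. RPL8, a 60S protein near the peptidyl transferase centre, had 1251, 1814 and 1229.5 CPM in STAT3 shRNA libraries 1, 2 and 3, against 1494, 2356 and 3185 CPM in control shRNA libraries 1, 2 and 3. STAT3 shRNA library 2 was above control shRNA library 1, and the log2 fold change of -0.71 ± 0.287 (SE) had an edgeR adjusted p of 0.144. RPL39, which lines the exit tunnel, had 277, 536 and 273 CPM in STAT3 shRNA libraries 1, 2 and 3, against 301, 629 and 710.3 CPM in control shRNA libraries 1, 2 and 3. Here libraries 2 and 3 of the control group and library 2 of the STAT3 shRNA group were high, and the log2 fold change was -0.60 ± 0.424 (SE; edgeR adjusted p = 0.400). RPL36, RPL41 and RPL27 had log2 fold changes of -0.62, -0.60 and -0.59, with edgeR adjusted p of 0.233, 0.177 and 0.0708. Among the 6 members with the highest mean CPM, not corrected for length, RPL13A was the only one called. The others were RPL4 (-0.19), RPS2 (-0.39), RPLP0 (-0.28), RPL8 (-0.71) and RPL7A (-0.37), all log2 fold changes.

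The spread within groups was widest in members with short coding sequences. Coding length was taken from the principal transcript of each gene in GENCODE 29 and ran from 75 to 1281 nucleotides. In the 28 shortest members, up to 396 nucleotides, the highest STAT3 shRNA library was a median of 1.30 times the lowest, and the highest control shRNA library 1.67 times the lowest. In the 27 members of 399 to 552 nucleotides these ratios were 1.15 in STAT3 shRNA and 1.46 in control shRNA libraries. In the 28 longest, from 564 nucleotides, they were 1.10 in STAT3 shRNA and 1.31 in control shRNA libraries. The rank correlation of length with the SD of log2 CPM over 83 members, which share the same 6 libraries, was -0.40 in the STAT3 shRNA and -0.47 in the control shRNA group. Length had a rank correlation of 0.15 with the log2 fold change itself, and the median log2 fold change of the short, middle and long members was -0.38, -0.36 and -0.31. The calls were 2, 5 and 4 in these classes, or 7.14%, 18.5% and 14.3% of their members. Of other protein-coding genes at or above the lowest mean CPM of a member, 9.04% to 10.8% were called lower, depending on length.

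Other protein-coding genes at the members' levels were also most spread where they were short, by less. Of those at or above the lowest mean CPM of a member, the 531 with coding sequences of 111 to 498 nucleotides had a median ratio of highest to lowest library of 1.16 in STAT3 shRNA and 1.29 in control shRNA libraries, and a median log2 fold change of -0.15. The 2093 of at least 2001 nucleotides had ratios of 1.13 in STAT3 shRNA and 1.23 in control shRNA libraries, and a median log2 fold change of -0.02. The shortest members had larger ratios than these other short genes in both groups. The middle and longest members did so only in the control shRNA group, while the median log2 fold change was further below 0 in all 3 classes of members. The part of transcript length in the shift was not tested.

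**Figure D3:**
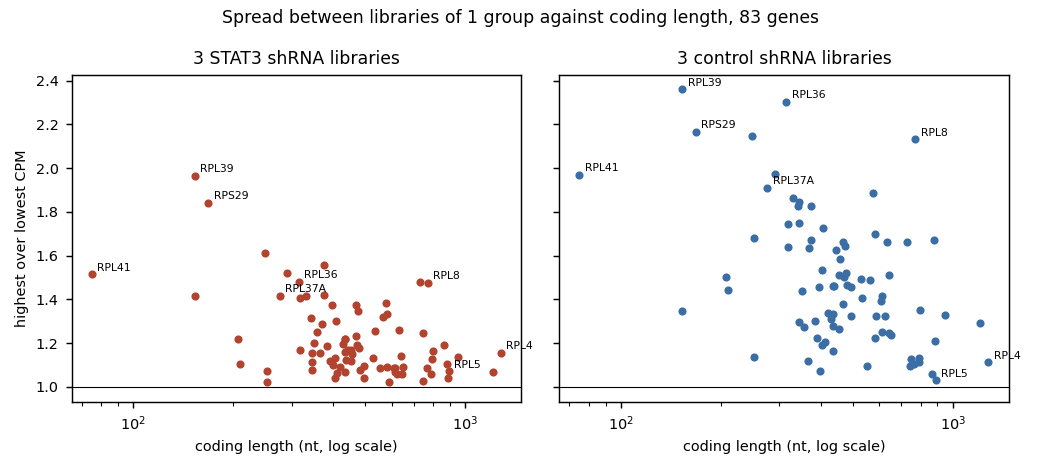
Highest over lowest CPM among the 3 libraries of a group against coding length in nucleotides (log scale), 1 point per ribosomal protein gene, with the STAT3 shRNA group in the left panel and the control shRNA group in the right. The short members RPL39, RPS29 and RPL41 are high in both panels, and RPL8 is high for its length.

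The start-site windows show the tract that most of these genes share. A RefSeq promoter window (GRCh38.p14) was matched by symbol for 67 of the 84 members. A run of at least 8 bases of C or T, on the gene's strand, overlapped the 10 bases on either side of the annotated start in 53 of the 67 (79.1%), against 15.4% of 27305 promoters of the same length. The median longest run was 11 bases in members and 4 bases in all promoters. A C at the start followed by 4 bases of C or T was found in 43 members (64.2%) and in 4.04% of all promoters. The tested members with a run of 8 or more had a median log2 fold change of -0.39 and 10 of the 53 were called lower. The 14 with a shorter run had a median of -0.24 and 1 called, and the 16 without a window had -0.31 and 0 called. Over all tested genes 8.13% were called lower. The part of the tract in the shift was not tested. The following windows hold 25 bases before the annotated start and 20 from it on, with the longest C and T run that overlaps the 10 bases on either side of the start in capitals. They are shown for the 3 members that departed from the others, for the called RPL13A, and for the paralogs RPL22 and RPL22L1. They lie at chr2:216498819-216498863 (RPL37A), chr2:3575235-3575279 (RPS7) and chr19:49487583-49487627 (RPL13A) on the plus strand and at chr15:63157458-63157502 (RPS27L), chr1:6199576-6199620 (RPL22) and chr3:170870176-170870220 (RPL22L1) on the minus strand.
RPL37A: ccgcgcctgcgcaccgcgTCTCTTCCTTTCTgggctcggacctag
RPS7: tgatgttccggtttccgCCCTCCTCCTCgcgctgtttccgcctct
RPS27L: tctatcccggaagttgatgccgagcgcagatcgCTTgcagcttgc
RPL13A: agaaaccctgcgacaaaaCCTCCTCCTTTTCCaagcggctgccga
RPL22: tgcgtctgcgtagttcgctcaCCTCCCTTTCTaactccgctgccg
RPL22L1: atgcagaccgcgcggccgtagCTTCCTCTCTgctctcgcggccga
RPL37A and RPS7, which departed in opposite directions, both carry a long run of C and T, of 13 and 11 bases. In both, as in RPL13A, RPL22 and RPL22L1, the run covers the annotated start. A C at the start followed by 4 bases of C or T is found in RPL37A but not in RPS7. In RPS27L the longest run is of 3 bases and lies downstream of the start. RPL22L1 has 10 bases, close to the 11 of its partner RPL22. A match describes letters in a window and shows no binding.

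Departure from the common shift was tested by scaling the libraries to the median ratio over the ribosomal protein rows and repeating the edgeR test over all 14999 genes. On that scale the members' median log2 fold change is 0.01 and that of all tested genes 0.31, so a value is read against the other ribosomal protein genes. Then 1 of the 83 tested members was called below the rest, against 1.87% of all tested genes. Another 2 of the 83 were called above, against 12% of all tested genes. Both are smaller shares than among all tested genes, so the members show no excess of such calls. The member below was RPL37A, and those above were RPS7 and RPS27L. RPSA and RPL13A, both called in the first test, were not called here, with departures of 0.02 ± 0.119 and -0.12 ± 0.105 (log2, SE; edgeR adjusted p = 0.904 and 0.424).

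RPL37A (ENSG00000197756.9, chromosome 2) had 312, 442 and 333 CPM in STAT3 shRNA libraries 1, 2 and 3, against 524, 763 and 1002 CPM in control shRNA libraries 1, 2 and 3. Every STAT3 shRNA library was below every control library, although control shRNA library 3 was 1.91 times control shRNA library 1. The log2 fold change was -1.08 ± 0.241 (SE; edgeR adjusted p = 0.0212), and the departure from the other members was -0.71 ± 0.156 (log2, SE; edgeR adjusted p = 0.0209). Counted against the members alone, which needs no scaling, RPL37A took 54.2, 69.0 and 56.8 of every 10000 member counts in STAT3 shRNA libraries 1, 2 and 3. It took 81.1, 101.6 and 110.2 of every 10000 in control shRNA libraries 1, 2 and 3. These shares also did not overlap. They restate the departure by which RPL37A was picked, from the same counts, and are no separate evidence for it. The call of the departure was lost without STAT3 shRNA library 1 or 3 (adjusted p = 0.109 each) and without control shRNA library 2 (adjusted p = 0.105), at values of -0.66, -0.68 and -0.67.

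RPL37A lies among genes that were also lower. Of the 10 tested genes on each side in GENCODE 29 order, 14 of 20 fell and 0 rose, with a median log2 fold change of -0.63. They include FN1, the fibronectin gene (-3.24), TNS1, a focal adhesion protein (-2.55), XRCC5, the large Ku subunit of DNA repair (-0.56), SMARCAL1, a replication fork helicase (-0.58), and ARPC2, a subunit of the actin-nucleating Arp2/3 complex (-0.61). AAMP, whose yeast counterpart Sqt1 is the chaperone of the yeast form of RPL10, is the third tested gene beyond RPL37A and had -0.87 ± 0.206 (SE; edgeR adjusted p = 0.0216). Over the surroundings of all 83 tested members, with other members left out, no median was lower than that of RPL37A, and the next lowest was -0.27, around RPS2. The part of the neighbourhood in the change of RPL37A was not tested.

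RPS7 (ENSG00000171863.14, chromosome 2), a 40S protein that binds MDM2 and is mutated in some patients with Diamond-Blackfan anaemia, had 772, 821 and 842 CPM in STAT3 shRNA libraries 1, 2 and 3, against 683, 698 and 837 CPM in control shRNA libraries 1, 2 and 3. Control shRNA library 3 was inside the range of the STAT3 shRNA group and the other control libraries were below it. The log2 fold change of 0.13 ± 0.0988 (SE; edgeR adjusted p = 0.391) did not differ from 0 past the threshold, but the departure from the other members was 0.47 ± 0.122 (log2, SE; edgeR adjusted p = 0.0391). RPS7 took 134.2, 128.2 and 143.8 of every 10000 member counts in STAT3 shRNA libraries 1, 2 and 3, against 105.7, 92.9 and 92.0 in control shRNA libraries 1, 2 and 3. On this share the groups did not overlap, but it restates the departure by which RPS7 was picked and is no separate evidence.

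Around RPS7, calls went the other way. Of its 20 tested neighbours, 8 rose and 0 fell, with a median log2 fold change of 0.38 and 18 values above 0. Those that rose include ADI1, of the methionine salvage pathway (0.38), EIPR1, of dense-core vesicle trafficking (0.38), KIDINS220, a neurotrophin signalling scaffold (0.44), and RNF144A, a ubiquitin ligase (1.16). No other tested member had a higher median around it, and the next highest was 0.26, around RPL5. The part of the neighbourhood in the departure of RPS7 was not tested. The remaining members on chromosome 2, RPL31 and RPS27A, had log2 fold changes of -0.42 and -0.38, close to the members' median, with departures of -0.07 ± 0.141 and -0.04 ± 0.126 (log2, SE).

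**Figure D4:**
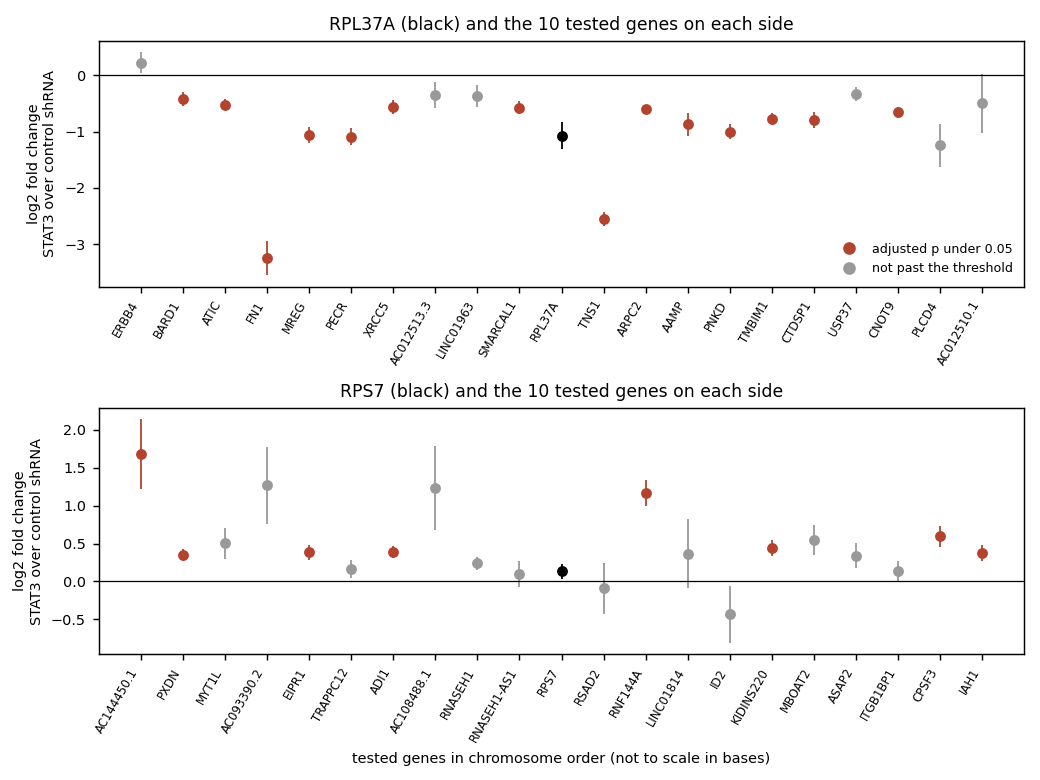
Log2 fold change with its SE (STAT3 shRNA over control shRNA) of RPL37A, RPS7 (both black) and the 10 tested genes on each side of them in chromosome order, with genes past an adjusted p of 0.05 in red. Around RPL37A 14 of 20 genes are called lower, and around RPS7 8 of 20 are called higher.

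RPS27L (ENSG00000185088.14, chromosome 15), a paralog of RPS27 that p53 induces and that binds MDM2, had 96.2, 96.8 and 94.6 CPM in STAT3 shRNA libraries 1, 2 and 3, against 77.6, 83.8 and 88.1 CPM in control shRNA libraries 1, 2 and 3. The STAT3 shRNA libraries were nearly equal and all above the control libraries. Its log2 fold change was 0.21 ± 0.0843 (SE; edgeR adjusted p = 0.131), and its departure from the other members was 0.54 ± 0.141 (log2, SE; edgeR adjusted p = 0.0405). Of its 20 tested neighbours 1 rose and 0 fell, with a median log2 fold change of 0.06, so its surroundings lay near the median of all genes. MDM2, another p53 target, did not pass the threshold, at 0.14 ± 0.165 on the log2 scale (SE; edgeR adjusted p = 0.617).

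The departures of RPS7 and RPS27L were less stable than that of RPL37A, which was lost in 3 of 11 alternatives. Neither passed the threshold with a replicate block, with no filter on low counts, or without any 1 of the STAT3 shRNA libraries or control shRNA library 2. Over all 11 alternatives the value for RPS7 stayed between 0.42 and 0.54 (adjusted p 0.00268 to 0.180) and that for RPS27L between 0.44 and 0.60 (adjusted p 0.00301 to 0.199).

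**Figure D5:**
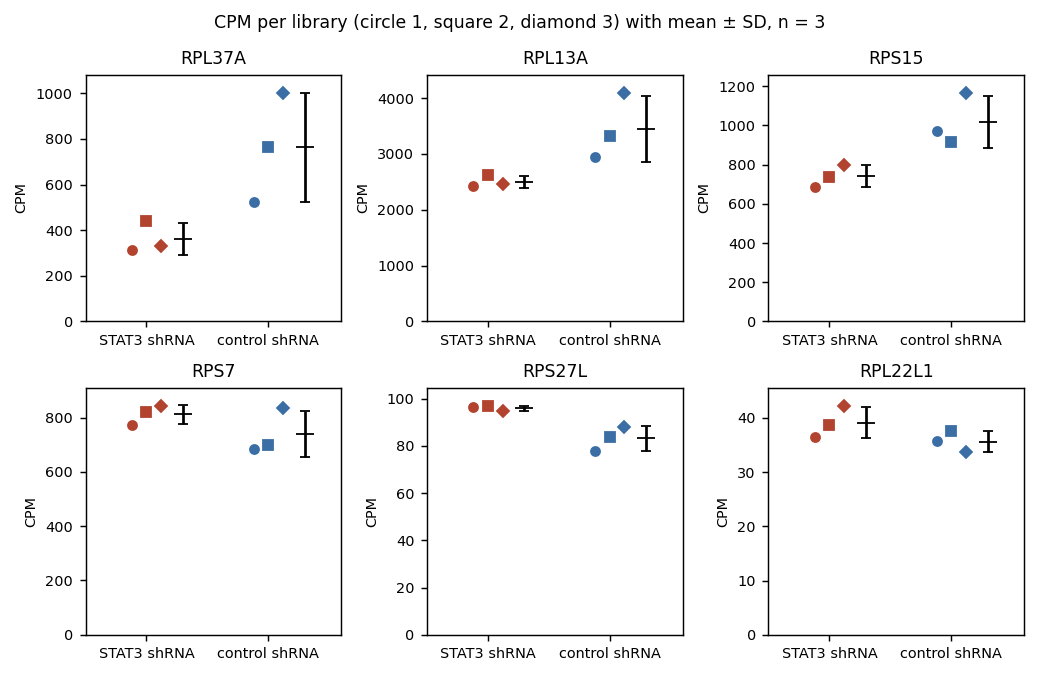
CPM in each library (circle, square and diamond for libraries 1, 2 and 3) with mean ± SD (n = 3 per group) for RPL37A, RPL13A, RPS15, RPS7, RPS27L and RPL22L1, STAT3 shRNA left of control shRNA. RPL37A, RPL13A and RPS15 are lower in every STAT3 shRNA library, RPS27L is higher in every one, and the groups overlap for RPS7 and RPL22L1.

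The other paralogs give further contrasts with their partners. Several ribosomal protein genes have a second copy that encodes a related protein, some of them used in particular tissues or conditions. How alike the proteins of each pair are was not computed here. RPL22L1, whose product can replace RPL22 in the ribosome and also binds messenger RNA, had 36.5, 38.7 and 42.1 CPM in STAT3 shRNA libraries 1, 2 and 3, against 35.6, 37.6 and 33.6 CPM in control shRNA libraries 1, 2 and 3. The groups overlapped, and the departure of 0.45 ± 0.184 (log2, SE) did not pass the threshold (edgeR adjusted p = 0.136). Its partner RPL22 was at -0.36 ± 0.119 on the log2 scale (SE; edgeR adjusted p = 0.0722). For every 100 counts of RPL22 there were 10.6, 9.49 and 12.1 counts of RPL22L1 in STAT3 shRNA libraries 1, 2 and 3, against 8.99, 7.58 and 6.53 in control shRNA libraries 1, 2 and 3. This ratio was higher in each STAT3 shRNA library.

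RPS27L showed the same picture against RPS27, a zinc-finger protein of the 40S subunit. For every 100 counts of RPS27 there were 17.7, 19.0 and 18.7 counts of RPS27L in STAT3 shRNA libraries 1, 2 and 3, against 15.7, 14.9 and 10.6 in control shRNA libraries 1, 2 and 3. The groups did not overlap, with control shRNA library 3 far below the others. RPL39L, a paralog used in male germ cells, had a departure of 0.40 ± 0.160 (log2, SE; edgeR adjusted p = 0.127), and its ratio to RPL39 averaged 9.22 ± 2.24 in STAT3 shRNA and 5.96 ± 1.88 in control shRNA libraries (counts per 100, SD, n = 3 each), with overlap. Its log2 fold change of 0.07 turned to -0.061 without STAT3 shRNA library 2 and to -0.044 without control shRNA library 1. RPL36AL, RPL26L1 and RPL7L1 kept overlapping ratios to their partners, with means of 24.6, 6.37 and 24.2 in STAT3 shRNA and 22.5, 6.52 and 24.2 in control shRNA libraries. None of these 6 ratios was tested, as the pairs were compared with their values known, and reads that match both copies could be split in ways not given in the sources used here.

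Processed pseudogenes are many for this family and can take reads from their parents. The table held 344 rows named as ribosomal protein pseudogenes of 63 parents, with 1.78% of the members' counts in all, and 27 were tested. In these, 1 rose and 1 fell, and the median log2 fold change was 0.02, unlike the -0.34 of the members. Several of the tested pseudogene rows had a mean under 1 CPM (RPL13AP7, 0.623 CPM), where fold changes are imprecise. The lowest mean of a tested member was 30.6 CPM (RPL39L). RPL23AP42 alone had 79.2% of the counts of RPL23A, and its log2 fold change was 0.02 where RPL23A had -0.32. RPL9P8 and RPL9P9 held identical counts in every library, each 147% of those of RPL9. The value of RPL9 (-0.52), with 101, 139.9 and 119 CPM in STAT3 shRNA libraries 1, 2 and 3, against 119.9, 168 and 226 CPM in control shRNA libraries 1, 2 and 3, is therefore uncertain. Adding pseudogene rows to their parents left 11 members called lower, the same 11, and did not change the calls of RPL37A, RPS7 or RPS27L. Readthrough rows were low, at a mean of 0.422 CPM for RPL17-C18orf32, 0.693 CPM for RPL36A-HNRNPH2 and 5.95 CPM for RPS10-NUDT3.

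Other genes of the translation machinery also had medians below 0. Among 17 other messenger RNAs with a TOP tract, 2 fell, 0 rose and the median was -0.16, while 8.13% of all tested genes fell and 9.39% rose. The 2 were EEF1B2, a subunit of the exchange factor for elongation factor 1, at 248 ± 8.84 CPM in STAT3 shRNA and 440.1 ± 59.6 CPM in control shRNA libraries (SD, n = 3 each; log2 fold change -0.83, edgeR adjusted p = 0.000782), and EIF3L, a subunit of initiation factor 3 (-0.40, adjusted p = 0.0162), whose call was lost without any 1 of the STAT3 shRNA libraries (-0.44, -0.35 and -0.43 without library 1, 2 and 3). EEF1A1 (-0.26) and EEF2 (-0.23), the main elongation factors, did not pass the threshold (adjusted p = 0.0595 and 0.127).

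Among ribosome assembly factors of the nucleolus, 10 of 38 fell and 1 rose, while 8.13% of all tested genes fell and 9.39% rose. Their median log2 fold change was -0.22. NCL, the nucleolar protein nucleolin, averaged 819 ± 24.8 CPM in STAT3 shRNA and 1267 ± 31.1 CPM in control shRNA libraries (SD, n = 3 each), and its log2 change was -0.63 (edgeR adjusted p = 0.000563). WDR12, part of a complex needed to process the 28S precursor, had -0.69 (adjusted p = 0.00105), and MRTO4, which holds the place of the stalk protein RPLP0 during assembly, had -0.52 (adjusted p = 0.00232). The member that rose was WDR43 (0.41, adjusted p = 0.0296), of the small-subunit processome. The count of assembly factors called lower was 4 without STAT3 shRNA library 1 or 3 or control shRNA library 2, and 16 without control shRNA library 1. Of the called list genes, NCL, WDR12, NOP58, EEF1B2, AAMP, MRPL44, WDR43 and TAF1B are, like RPL37A and RPS7, on chromosome 2. The median log2 fold change of the 20 tested genes nearest to each, members left out, was -0.67 for AAMP (15 lower), -0.64 for MRPL44, -0.59 for NCL (13 lower), -0.52 for EEF1B2, -0.48 for both WDR12 and NOP58, 0.49 for WDR43 (12 higher) and 0.45 for TAF1B. Around MRTO4, on chromosome 1, it was -0.52 (10 lower). The part of these neighbourhoods in the calls was not tested.

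Upstream of the ribosome, few genes passed the test. Of 15 ribosomal protein chaperones, importins and MDM2 axis genes, AAMP fell and 0 rose, with a median log2 fold change of -0.12. Of 15 genes of RNA polymerase I and its factors, which transcribe ribosomal RNA, TAF1B rose (0.47, edgeR adjusted p = 0.0210), 0 fell, and the median was -0.15. Of 19 genes around mTOR complex 1, LARP1 and MYC, 2 fell and 1 rose, with a median of -0.23. RPTOR, the scaffold of mTOR complex 1, had -0.35 (edgeR adjusted p = 0.0244), RHEB, the small GTPase that activates it, had -0.31 (adjusted p = 0.0249), and EIF4EBP2, a repressor of cap-dependent initiation, had 0.59 (adjusted p = 0.00340). LARP1 had -0.14 (adjusted p = 0.328) and MYC -0.02 (adjusted p = 0.864). Over all tested genes, 8.13% fell and 9.39% rose. The calls of AAMP, TAF1B, RPTOR and RHEB were each lost in fits with 1 library left out, among them those without STAT3 shRNA library 1, STAT3 shRNA library 3 or control shRNA library 2. In these AAMP lay at -0.78, -0.83 and -0.84, and it was also lost without control shRNA library 3, at -0.67. The count of the mTOR complex 1 list called lower was 0, 1 and 0 without STAT3 shRNA library 1, 2 or 3, and 6, 0 and 4 without control shRNA library 1, 2 or 3.

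The mitochondrial ribosome, a separate machine whose proteins are also encoded in the nucleus, also had a median below 0. Of 78 mitochondrial ribosomal protein genes, 13 fell and 0 rose, while 8.13% of all tested genes fell and 9.39% rose. A log2 fold change below 0 was found in 70, and the median was -0.27. MRPL44 (-0.58, edgeR adjusted p = 0.00360), MRPS30 (-0.44, adjusted p = 0.00887) and MRPL37 (-0.45, adjusted p = 0.00987) had the smallest adjusted p. The neighbours of MRPL44 on chromosome 2 had a median log2 fold change of -0.64, with 10 of 20 lower, against 0.09 around MRPS30 and -0.08 around MRPL37. The part of the neighbourhood in the call of MRPL44 was not tested. The summed level of the 78 genes averaged 4905 ± 202.5 CPM in STAT3 shRNA and 5934 ± 572.2 CPM in control shRNA libraries (SD, n = 3 each). The ratio of cytosolic to mitochondrial ribosomal protein counts was 12.1, 12.5 and 12.2 in STAT3 shRNA libraries 1, 2 and 3, against 12.1, 12.6 and 14.0 in control shRNA libraries 1, 2 and 3. The other 5 libraries thus lay within 12.1 to 12.6, and control shRNA library 3 above them. The count of mitochondrial ribosomal proteins called lower was 1, 7 and 4 without STAT3 shRNA library 1, 2 or 3, and 36, 4 and 7 without control shRNA library 1, 2 or 3.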

How the data were processed

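RNA sequencing counts per gene were deposited for 6 libraries as whole numbers with unequal totals, so no normalization by the authors is visible in them. How the libraries were made and how reads were aligned and counted, on which build and strand, is not given in the sources used here. Reads of overlapping genes or near-identical copies may thus have been split in unknown ways. Groups came from the treatment label and library numbers from the titles.

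Counts were tested in R 4.3.3 with edgeR 4.0.16: filterByExpr with default settings (count minimum 10, total minimum 15), TMM factors, and a two-sided quasi-likelihood F test on group alone, dispersions estimated robustly. Benjamini-Hochberg adjustment ran over all 14999 tested genes, with a threshold of 0.05. SE values of log2 fold changes were computed as |log2 fold change| / √F. CPM are counts over the TMM-scaled library size. TMM assumes that most genes do not differ, so a change of all genes in one direction is not visible. In a library, 0 counts allow for up to 3, 0.113 to 0.164 CPM in STAT3 shRNA and 0.158 to 0.175 CPM in control shRNA libraries, for counting error only.

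For departure from the common shift, the same test was run on the whole table with libraries scaled by the median ratio over the ribosomal protein rows. DESeq2 1.42.0 and other alternatives are in the closing section. The procedure was also run on simulated counts, drawn independently for each gene. These hold no change of a single library shared by the members, so they cannot show how such a change affects the calls. The members and all gene lists were chosen with earlier results of these data known, and no list was tested as a set. Of the 6 translation lists counted together in the closing section, 1, with no called gene, is not reported here.

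Named genes were, by rule, STAT3, the called members, the 6 members most above and most below the median with at least 5 CPM, the 6 with the highest mean CPM, paralog pairs, and up to 3 called genes of each other list. The stalk proteins, RPL5, RPL11, RPL31, RPS27A, MDM2, LARP1, MYC, EEF1A1, EEF2, WDR43, NOP58, RPL9, RPL23A, the pseudogenes and the neighbours of departing members were added after their values were seen. List symbols were matched by name or through tables of gene names (AROS to the row RPS19BP1, and 3 RNA polymerase I genes to older names). GENCODE 29 gave gene order and coding length, and RefSeq on GRCh38.p14 the start windows, searched on the gene's own strand only. Libraries of a group differed by 4.20 to 43.0 chi-square units per degree of freedom, more than sampling noise gives. Repeat libraries of 1 RNA or culture cannot be told apart from separate ones this way.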

Additional observations from a re-analysis of the deposited data

How the results depend on the processing

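The median log2 fold change of the ribosomal protein genes stayed below 0 in all 13 alternatives, between -0.46 and -0.19, but the number of genes past the threshold did not hold. Of the 11 called lower, edgeR with median-of-ratios factors kept 11, upper-quartile factors and library totals gave 5 each, no filter on low counts gave 18 (9 shared), and DESeq2 gave 26 (11 shared). Library totals gave 1 called higher, RPS27L. With upper-quartile factors 6.02% of members were lower, against 6.71% of all tested genes. Leaving out 1 library at a time gave 0 to 53 lower. Only without control shRNA library 1 did the members' share then exceed that of all tested genes. Above the common shift there were 0 without a filter and 0 to 3 with 1 library left out, and below it 0 to 3. Over the 6 other translation lists together, 15 were lower, against 6 on library totals and 23 by DESeq2, and 5 to 31 lower and 1 to 5 higher with 1 library left out. For mitochondrial ribosomal proteins, 13 were lower, against 8 with upper-quartile factors and 6 on library totals, where 1 was higher, and 1 to 36 lower and 0 to 1 higher with 1 library left out. Over all genes, leaving out 1 library gave 796 to 2068 higher and 666 to 2030 lower. RPL39L, at 0.07, reversed to -0.061 without STAT3 shRNA library 2 and to -0.044 without control shRNA library 1, and ranged up to 0.18 (without STAT3 shRNA library 3). The cause of these differences was not tested.

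With the replicate number as a block, 12 members were called lower (9 shared), 0 lay above the common shift and 8 mitochondrial ribosomal proteins were lower. Same-numbered libraries correlated at 0.28, 0.19 and -0.23 in their deviations from the group means. With 3 libraries a group these deviations sum to 0, so such values cannot decide whether the numbers pair the libraries. STAT3 shRNA library 2 correlated best with control shRNA library 3, at 0.33. Over the ribosomal protein genes alone the same-number values were 0.69, 0.80 and -0.48, and STAT3 shRNA library 2 correlated best with control shRNA library 2. There STAT3 shRNA library 3 correlated best with control shRNA library 1, at 0.81.

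With 3 libraries a group, precision is limited by the spread between libraries more than by depth, since all but 4 tested members had a mean over 100 CPM. In most members control shRNA library 1 was the lowest and control shRNA library 3 the highest of their group.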
